A study of Mus musculus with 8 samples.

Results

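Binding of Flag-tagged HoxB4 was examined at 9 erythroid and globin genes, Klf1, Epor, Tfrc, Alas2, Slc4a1, Hba-a1, Hba-x, Hbb-bh1 and Hbb-y, among 16908 genes named on 2 mouse promoter arrays. The genes were chosen by name, and their probes are those whose annotation names one of them. Together they had 250 of 473585 probes, 116 on the first array for 4 genes and 134 on the second for 5. Tfrc had the highest window of the 9 genes as measured, though not under 2 of 13 alternative settings. At its start, 5 neighbouring probes had a Flag-IP over input ratio at least 2-fold that of the array's median probe. This run was shorter when ratios were set against probes of the same length. As measured, the other 8 genes had no median of 3 neighbouring probes at 2-fold or more. Each of Epor, Klf1, Alas2, Slc4a1 and Hba-x had one under some of the alternative settings. Hbb-y lay above the median of the array at 1 of its 27 probes.

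Red cells arise from progenitors that switch on a shared set of genes under transcription factors such as Gata1 and Klf1. Erythropoietin signals through the receptor made by Epor, transferrin-bound iron enters through the receptor made by Tfrc, and Alas2 starts heme synthesis in erythroid cells. Heme joins globin chains from the alpha and beta clusters, whose embryonic genes (Hba-x, Hbb-bh1, Hbb-y) and adult genes (Hba-a1) are used at different stages. HoxB4, a homeodomain protein, is known for expanding blood stem cells ex vivo.

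The cells came from the mouse embryonic stem cell line B6N-22UTR. After 6 days as embryoid bodies, precursors with the surface proteins c-Kit and CD41 were placed on OP9 stroma and given a retrovirus carrying HoxB4 with 3 Flag tags. On day 12 of coculture the c-Kit+ cells were collected with magnetic beads for chromatin immunoprecipitation. DNA pulled down with the Flag antibody (Cy5) was hybridised against input DNA (Cy3), both amplified with T7 RNA polymerase. HoxB4 was delivered by a virus and carried a tag, so any binding measured is that of the introduced protein, not of the cells' own HoxB4. Each of the 2 arrays held another set of probes, which leaves 1 sample and no replicate for every gene. No test across samples was therefore possible, and all comparisons below are descriptions of 1 hybridisation each. A Flag-IP from cells without the tag was not analysed here, so the ratios do not separate binding from DNA pulled down without it. Expression arrays of the same series were not analysed here, so marker transcripts of the cells were not checked.

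Values are log2 of Flag-IP over input, centred so that 0 is the median probe of the array and 1 is a doubling. The error that Feature Extraction assigns to a probe had a median of 0.23 on both arrays and covers the scanner's error model, not the spread between cultures. A window is the median of 3 neighbouring probes of a gene whose starts lie at most 1000 bp apart, and 16663 genes had at least 1. The 9 genes had 13 to 31 windows each, against a median of 25 over all genes. Probe coordinates are those of the files, with a genome build not given in the sources used here.

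Ratios differed with probe length on both arrays. Probes of 44 or 45 bases had a median of 0.41 on the first array and 0.40 on the second. Those of 60 bases had medians of -0.55 and -0.56 and made up 41.2% and 41.7% of all probes. Among the probes of the 9 genes the 60-base class took 51.7% on the first array and 43.3% on the second. The share ran from 3.03% of the Slc4a1 probes to 88.9% of the Hbb-y probes, so values with every ratio set against the median of probes of the same length on the same array are given beside the results below. The part of probe length in the results was not tested beyond this.

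**Figure D1:**
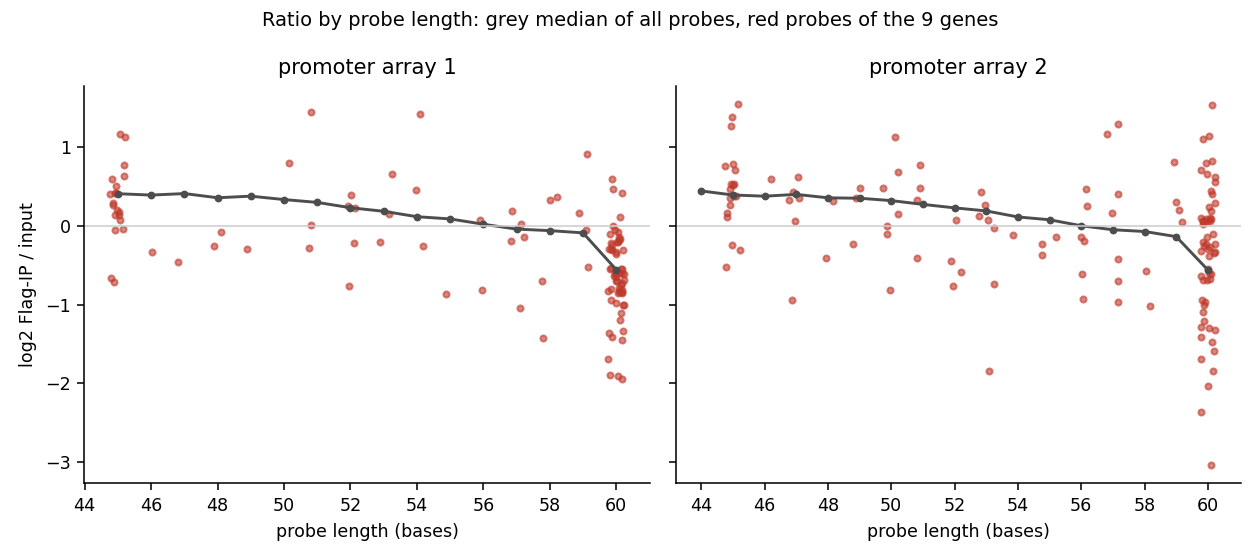
Log2 Flag-IP over input (vertical axis) against probe length in bases (horizontal axis) on each promoter array. Grey points and lines are medians of all probes of a length with at least 100 probes, and red points are single probes of the 9 genes, spread slightly sideways; the medians fall with length and drop below -0.5 at 60 bases.

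Promoter sequences are shown for 4 genes. Tfrc had the highest mean near the start of the genes with probes there, and Hbb-y the lowest. Hba-x had a single probe at 1 or more within 500 bp of its start, 285 bp upstream. Alas2 was taken as a classical erythroid promoter. RefSeq's table (GRCm38.p6) held a promoter for 7 of the 9 genes, and Hbb-bh1 and Slc4a1 are named only. Each sequence runs 5′ to 3′ from 250 bases before to 50 after the gene start, and capitals mark matches to a GATA motif (AGATAA, where the first base may also be T and the last may also be G) or a CACCC-type motif (CCNCNCCC) on either strand. The positions are chr16:32608646-32608945 on the plus strand for Tfrc, where RefSeq lists another start further downstream, chrX:150547167-150547466 (plus) for Alas2, chr11:32276350-32276649 (plus) for Hba-x and chr7:103853158-103853457 (minus) for Hbb-y. The build of the probes could not be compared with GRCm38.p6, so no probe is placed on these letters.
Tfrc: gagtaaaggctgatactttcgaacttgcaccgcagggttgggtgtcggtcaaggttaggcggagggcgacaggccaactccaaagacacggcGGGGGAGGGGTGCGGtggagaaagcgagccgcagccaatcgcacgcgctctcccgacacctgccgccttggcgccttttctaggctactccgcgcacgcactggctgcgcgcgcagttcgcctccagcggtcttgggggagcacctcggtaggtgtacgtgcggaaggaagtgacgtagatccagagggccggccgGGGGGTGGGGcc
Alas2: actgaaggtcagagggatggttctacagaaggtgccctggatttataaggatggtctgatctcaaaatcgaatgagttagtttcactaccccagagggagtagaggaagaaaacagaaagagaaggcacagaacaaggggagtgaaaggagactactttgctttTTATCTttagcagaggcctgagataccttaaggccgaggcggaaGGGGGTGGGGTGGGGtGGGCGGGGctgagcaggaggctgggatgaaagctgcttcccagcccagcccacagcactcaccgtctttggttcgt
Hba-x: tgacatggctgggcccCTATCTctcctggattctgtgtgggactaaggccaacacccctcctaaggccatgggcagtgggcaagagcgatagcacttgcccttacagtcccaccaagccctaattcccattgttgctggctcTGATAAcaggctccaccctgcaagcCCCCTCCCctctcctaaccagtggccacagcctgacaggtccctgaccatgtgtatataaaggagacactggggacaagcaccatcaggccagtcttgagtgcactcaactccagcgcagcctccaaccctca
Hbb-y: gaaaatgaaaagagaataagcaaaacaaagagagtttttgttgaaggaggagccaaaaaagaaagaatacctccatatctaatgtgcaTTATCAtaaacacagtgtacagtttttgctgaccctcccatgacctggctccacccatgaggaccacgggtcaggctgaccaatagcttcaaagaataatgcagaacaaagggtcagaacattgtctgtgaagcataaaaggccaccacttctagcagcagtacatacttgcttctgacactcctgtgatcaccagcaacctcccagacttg

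A GATA motif stood in 6 of the 7 promoters, all but that of Tfrc, and in 29.8% of 32851 promoters of this length. The CACCC-type motif stood in 4 of 7, those of Tfrc, Alas2, Epor and Hba-x, against 49.5% of all promoters. This pattern differs from the bare letters CACCC, which were not counted. The Hbb-y sequence holds CACCC without a match, and the match GGGCGGGG in Alas2 holds no CACCC on either strand. A TAAT core, the short sequence that many homeodomains recognise, was found in 3 of 7 promoters, those of Epor, Hba-x and Hbb-y, against 58.0%. The composite TGATTNAT of Hox and Pbx proteins was in 0 of 7 and in 3.22% of all. The only overlap between a GATA match and a TAAT match was in Hbb-y, and no GATA match overlapped a CACCC-type match. The printed sequence of Tfrc, whose start had the highest mean ratio of the 8 genes with probes there, held neither a GATA nor a TAAT match. Hbb-y, with the lowest start mean, held 3 TAAT matches. Between these, Hba-x (start mean 0.53) and Epor (0.06) held a TAAT match, while Alas2 (0.04) and Klf1 (-0.22) held none. Matches describe the letters of these windows and do not show binding.

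Base composition differed between these promoters. The printed Tfrc promoter was 66.0% G and C, higher than 83.8% of all promoters, and that of Hbb-y 43.3%, higher than 17.3%. Over all genes the mean ratio within 500 bp of the start moved with promoter composition, with a median of -0.48 for 1906 genes under 45% G and C and 0.50 for 4550 genes between 55% and 65%. Among genes within 5 percentage points of its own composition, Tfrc's mean near the start was higher than in 78.8% of 3824 genes and that of Hbb-y higher than in 15.0% of 2031.

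Of the 9 genes, 1 (Tfrc) had a window at a log2 ratio of 1 or more, against 41.7% of all genes with windows. No member reached 2, against 2.89% of all genes. The median over the 9 of the highest window was 0.60, against 0.89 over all genes, and 8 of the 9 lay below that overall median. Among these, Hba-a1 had no probe nearer than 1331 bp to its start, so its windows leave the start out. Windows at -1 or less were present in 4 of the 9 (Klf1, Tfrc, Hba-a1 and Hbb-y), against 54.1% of all genes. With each ratio set against probes of the same length, 2 of the 9 (Tfrc and Hba-x) reached 1, each in another window than its highest as measured, against 39.8% of all genes, and 7 of 9 lay below the overall median of 0.87. With the brightness trend removed the median over the 9 was 0.90, above the 0.81 over all genes, and 4 of 9 lay below that median. The genes are few and were picked by name, so these shares describe them and nothing wider.

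**Figure D2:**
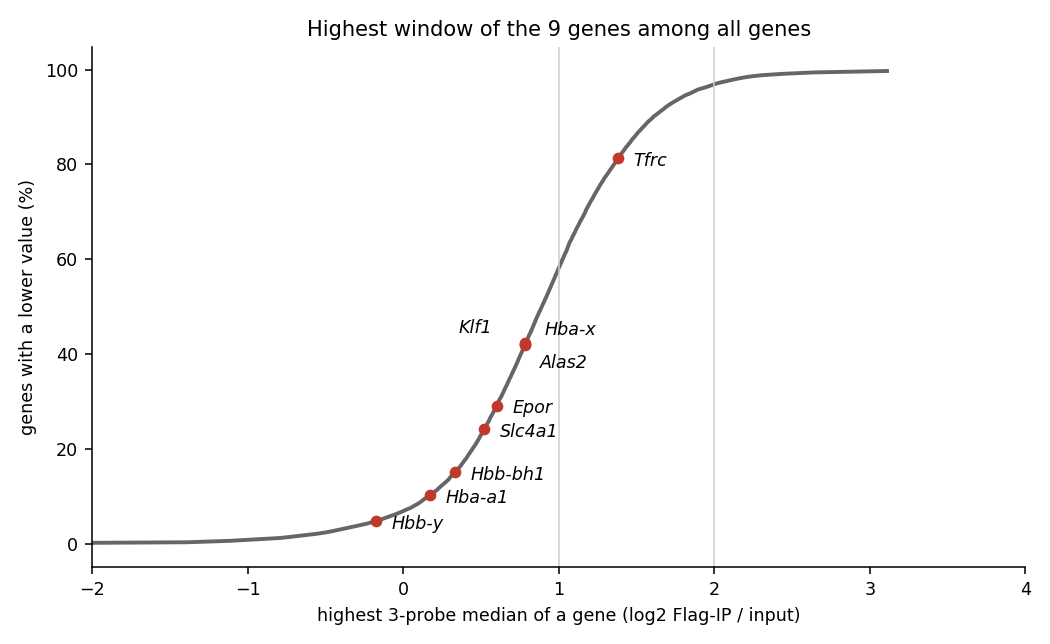
The highest 3-probe median of a gene (log2 Flag-IP over input, horizontal axis) against the percentage of the 16663 genes with a lower value (vertical axis), for all genes (grey line) and the 9 erythroid and globin genes (red). Vertical lines mark 1 and 2; Tfrc alone lies right of 1, and Klf1, Alas2 and Hba-x lie on nearly the same point.

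Tfrc encodes the transferrin receptor, through which maturing red cells and other dividing cells take up iron. Its highest window, 1.38, lay at chr16:32528627-32529030 and spanned the annotated gene start. The 3 probes had values of 1.28 at 118 bp upstream, 1.38 at 12 bp downstream and 1.55 at 241 bp downstream, so they differed from each other by little more than the probe error. The next probes downstream gave 1.30 at 406 bp and 1.14 at 627 bp, which made a run of 5 neighbouring probes at 1 or more. A run at least that long was present in 4.88% of all genes. Against probes of the same length these probes had, in the same order, 0.88, 0.99, 1.16, 1.35 and 1.70, so the run at 1 or more was shorter there. The share of genes with such a run was not counted on that scale.

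On the upstream side of Tfrc the signal changed sign within a short stretch. The probe 243 bp upstream had 0.71, the next one, 440 bp upstream, had -1.20, and every one of the 13 probes from there to 5149 bp upstream lay at or below -0.59. Within 500 bp of the start the mean was 0.84 ± 1.04 (SD over 6 probes), against -1.16 over 9 probes from 5000 to 1000 bp upstream. The difference of 1.99 between start and upstream was larger than in 97.5% of genes with both values. Beside it, 12 of the 13 upstream probes were 60-base probes, whereas those from 243 bp upstream to 406 bp downstream were shorter.

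Against probes of the same length the start window of Tfrc was 0.99, from probes at 0.88 to 1.16, just below 1. The highest window on that scale was another one, 1.36 over the probes 627 to 1341 bp inside the gene, higher than in 82.7% of genes. The difference of start over upstream was 1.36, higher than in 95.7%. The 60-base probe 627 bp inside the gene was 1.70 above the median of 60-base probes on its array. A window of Tfrc was at 1 or more under each of the 13 alternative settings, from 1.15 to 1.45. It was not the highest of the 9 under 2 of them: with normexp background correction Epor had 1.46 against 1.21 for Tfrc, and with the brightness trend removed Alas2 had 1.32 against 1.15. Over all genes, 81.4% had a lower highest window than Tfrc as measured.

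**Figure D3:**
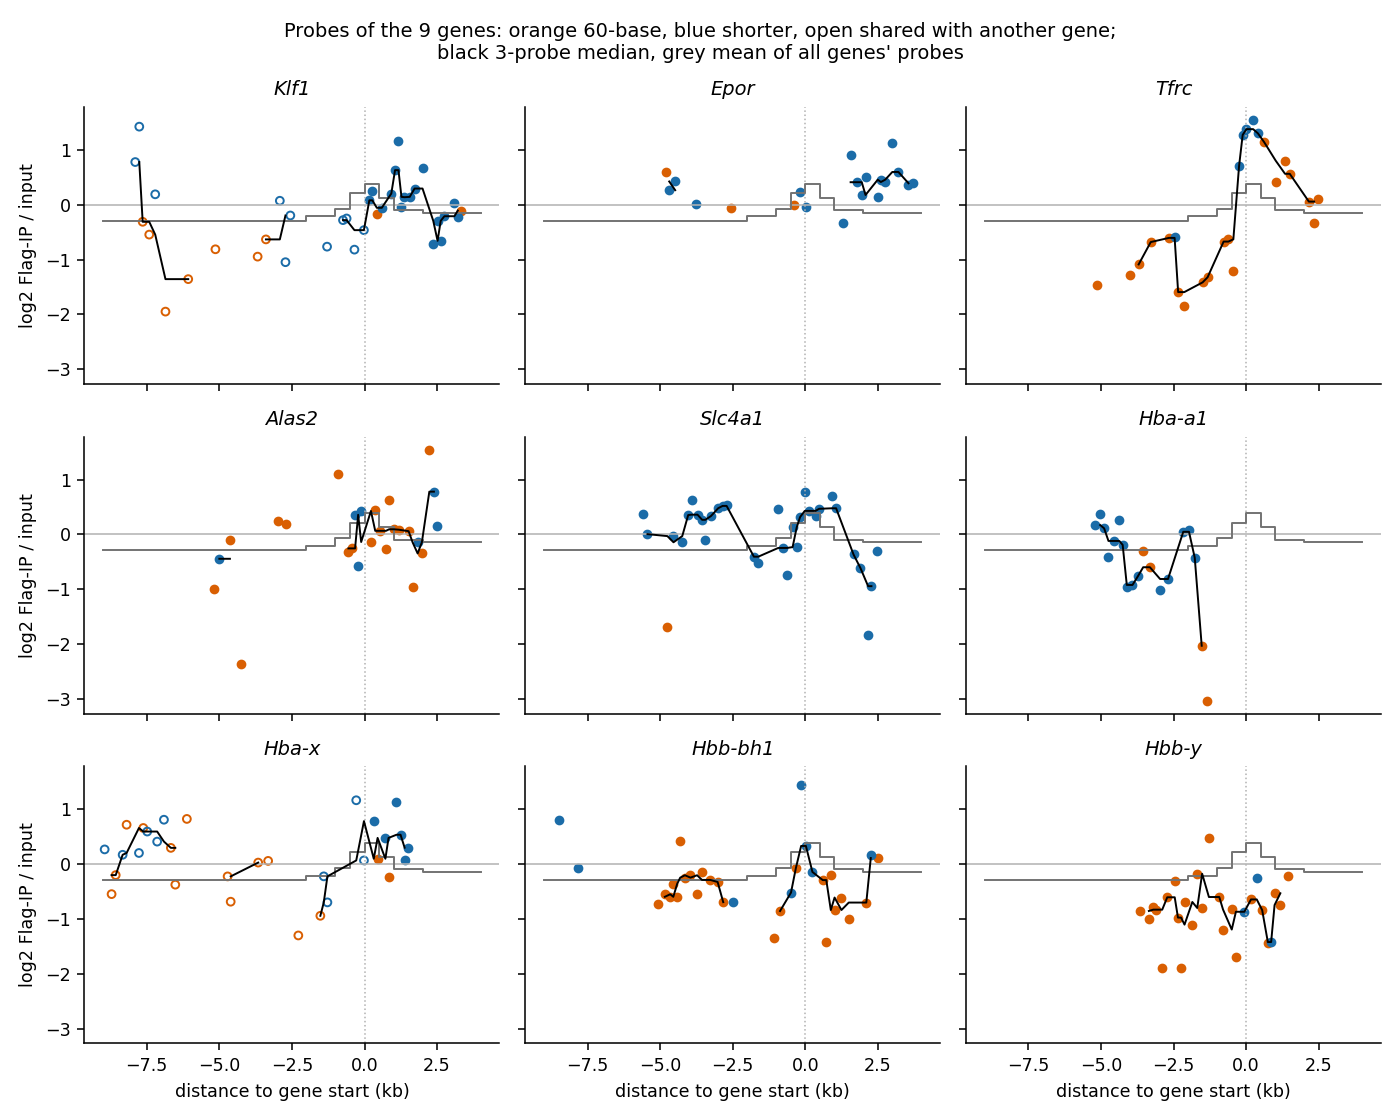
Log2 Flag-IP over input (vertical axis) of every probe of the 9 genes against distance to the gene start in kb (horizontal axis, transcription to the right). Orange points are 60-base probes, blue points shorter ones and open points probes that the annotation also gives to another gene; black lines are 3-probe medians and grey steps the mean of all genes' probes. Tfrc rises from below -1 to above 1 at its start, whereas Hbb-y stays below 0 with 1 exception.

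Epor encodes the erythropoietin receptor, which signals through the kinase Jak2 and the factor Stat5. It had the evenest profile of the 9, with 17 of 20 probes above 0, a range from -0.33 to 1.13 and a mean of 0.33, higher than in 82.4% of genes. Its lowest window, 0.0056, was higher than in 95.6% of genes. The highest window, 0.60 at chr9:21710396-21711003, lay 3207 bp inside the annotated gene and not at the start, where 3 probes within 500 bp had a mean of 0.06 ± 0.15 (SD). Only 3 of the Epor probes were 60-base probes, and against probes of the same length its mean was 0.16, higher than in 66.6% of genes, with a highest window of 0.42. The call at Epor depended on how the signals were treated: its highest window was 1.46 after normexp background correction and 1.07 with the trend over brightness removed.

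Klf1 encodes the zinc-finger factor that binds CACCC motifs and activates adult globin and many other erythroid genes. It had 37 probes, of which 18 are also annotated to Gcdh, its upstream neighbour, which encodes a mitochondrial dehydrogenase. The highest window of Klf1, 0.78 at chr8:87784112-87784420, was one of these shared windows: it lay 7759 bp upstream of the Klf1 start and 247 bp upstream of the Gcdh start. Its 3 probes ran from -0.31 to 1.43, wider than the probe error. Gcdh itself had a highest window of 0.97 and a mean of 0.78 over 7 probes within 500 bp of its start.

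Near Klf1 itself the signal was lower. The 5 probes within 500 bp of the start had a mean of -0.22 ± 0.43 (SD), higher than in 17.5% of genes. The highest window among probes of Klf1 alone was 0.63 at chr8:87792933-87793224, between the positions 923 and 1170 bp inside the gene, where 1 probe reached 1.17 and its neighbour 1273 bp inside the gene had -0.04. Against probes of the same length the highest window of Klf1 was 0.37 and the mean near the start -0.33. With normexp correction the highest window was 1.13.

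Alas2 encodes the erythroid form of the first enzyme of heme synthesis and lies on the X chromosome. Its highest window, 0.78 at chrX:145890107-145890576, was 2233 bp inside the gene and rested on probes from -0.35 to 1.54. The other probe above 1, at 1.11, lay 915 bp upstream, with neighbours of -0.31 and 0.19. Around the start, 6 probes had a mean of 0.04 ± 0.43 (SD), higher than in 29.6% of genes. Of the Alas2 probes 19 of 26 were 60-base probes, and against probes of the same length the start mean was 0.24, higher than in 59.1% of genes, and the highest window 0.65.

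The input signal was weaker at Alas2 than at the other 8 genes, with a median of 415 units against 620 to 972, and 3 of its 26 probes were not well above background in at least 1 channel. The highest window of Alas2 was 0.11 with normexp correction and 1.32 with the brightness trend removed.

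Slc4a1 encodes band 3, the anion exchanger of the red cell membrane. Its highest window, 0.52 at chr11:102182953-102184076, lay 2711 bp upstream. Around the start 7 probes had a mean of 0.32 ± 0.31 (SD), close to the median of 0.32 over all genes, and no probe of Slc4a1 reached 1. The lowest window, -0.94, lay 2163 bp inside the gene. Nearly all its probes were short, 32 of 33 below 60 bases, and against probes of the same length the start mean was 0.02.

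In the alpha-globin cluster on chromosome 11, the embryonic gene Hba-x (zeta globin) and the adult gene Hba-a1 start 7072 bp apart. Hba-x had the highest window of the 4 globin genes, 0.78 at chr11:32176288-32176942, across its start. The 3 probes were uneven: 1.17 at 285 bp upstream, 0.07 at 19 bp upstream and 0.78 at 319 bp downstream. Both upstream ones are also annotated to the neighbouring gene Mare, now called Nprl3, as are 23 of the 31 Hba-x probes. Without shared probes the highest window of Hba-x was 0.54.

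The start of Hba-x stood above its upstream region, with means of 0.53 ± 0.54 (SD, 4 probes) and -0.50 (8 probes). The difference, 1.03, was larger than in 77.0% of genes and 0.57 against probes of the same length. On that scale the start window was 0.39. Further upstream, between 8196 and 6120 bp before the start, 8 of 9 probes were above 0, from 0.20 to 0.82, a stretch that lies nearer to the start of Nprl3 and is also annotated to it. The highest Hba-x window against probes of the same length lay there, 1.22 over the probes 8196 to 7621 bp upstream, higher than in 75.3% of genes.

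Hba-a1 had 19 probes, all upstream between 5218 and 1331 bp before the start, so its promoter was not covered and no value near the start exists. Its highest window was 0.17, higher than in 10.3% of genes, and lay 5027 bp upstream, in the stretch between Hba-x and Hba-a1. The lowest window, -2.03 at chr11:32181875-32182372, was the lowest of the 9 genes and covered the 3 probes nearest to the start. These had -0.42, -2.03 and -3.04, and the last was not well above background in at least 1 channel. Against probes of the same length the highest window was -0.02, higher than in 4.52% of genes.

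The beta-like embryonic genes Hbb-bh1 and Hbb-y start 10045 bp apart on chromosome 7, and both had low values. Hbb-y had a mean of -0.84 over 27 probes, with a range from -1.90 to 0.47 and 1 probe above 0. Its highest window, -0.18 at chr7:103728281-103728742, was below the array median and higher than in 4.81% of genes. The 5 probes within 500 bp of the start ran from -1.69 to -0.26, with a mean of -0.86 ± 0.53 (SD), and those from 5000 to 1000 bp upstream had a mean of -0.82. The start of Hbb-y was therefore not above its flank. Of its probes 24 were 60-base probes, with a mean of -0.84, and 3 were shorter, with a mean of -0.85. Against probes of the same length the mean over all probes was -0.36, that near the start -0.57, higher than in 8.41% of genes, and the highest window 0.38, higher than in 17.0%.

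Hbb-bh1 had a mean of -0.34 over all probes and a single high probe at the start. The probe 144 bp upstream had 1.44, but its neighbours 20 bp downstream and further upstream gave 0.33 and -0.07. The highest window, at chr7:103716710-103717152, was therefore 0.33, and 6 of 32 probes were above 0. Around the start the mean was 0.21 ± 0.75 (SD, 5 probes), higher than in 40.8% of genes. Against probes of the same length it was 0.30, higher than in 63.4%, and the highest window 0.48.

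A window reaches 1 only if most of its probes do. High probes outside Tfrc, where no window reached 1, therefore stood alone largely by that result. The share of such lone probes over all genes was not counted. Of the 13 probes of the 9 genes at 1 or more, 5 were those of the Tfrc run and 8 stood alone, in Alas2, Klf1 and Hba-x (2 each) and in Epor and Hbb-bh1. Probes at 1 or more made up 5.20% of the 250, against 8.81% of all probes, and probes at -1 or less 12.0%, against 15.4%. Of the 9 genes 8 had probes near the start, and in 6 of these the mean near the start was above the upstream mean, as in 77.8% of all genes. The exceptions were Epor and Hbb-y, by -0.19 and -0.04. The median of the near-start mean was 0.14 over the 8 genes, against 0.32 over 16236 genes, and 0.13 against 0.12 with probes of the same length.

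**Figure D4:**
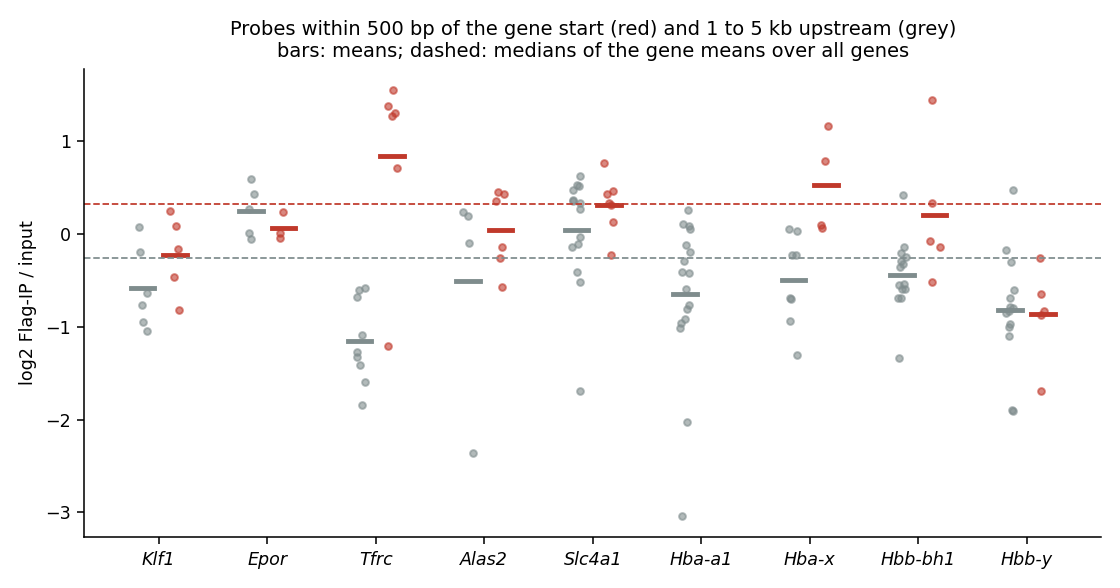
Log2 Flag-IP over input (vertical axis) of single probes within 500 bp of the gene start (red) and from 5 to 1 kb upstream (grey) for each of the 9 genes, spread slightly sideways. Bars are means over probes and dashed lines the medians of such means over all genes; Tfrc has the widest gap, 0.84 against -1.16, and Hba-a1 has no probe near its start.

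Ordered by the highest window, the genes ran from Tfrc (1.38) through Hba-x, Alas2 and Klf1 (all 0.78), Epor (0.60), Slc4a1 (0.52), Hbb-bh1 (0.33) and Hba-a1 (0.17) to Hbb-y (-0.18). The step from Tfrc to the next gene, 0.60, exceeded the SD of 0.14 over the 3 Tfrc probes and was close to the 0.56 over those of Hba-x. Each pair of neighbours further down differed by less than the larger of the SDs over the probes of their windows, so their order is not resolved.

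Other genes of the erythroid programme were counted in the same way. Of 84 further genes in 7 roles, 76 had windows, and 44 of these, or 57.9%, had a window at 1 or more, against the 41.7% of all genes given above. At 2 or more there were 3 of the 76 (Epb4.1, Icam4 and Lyl1), against 2.89% of all genes. The median of the highest windows over the 76 genes was 1.09, against 0.89 over all genes. The count was 42 of 76 against probes of the same length, where 39.8% of all genes reached 1. Each role count below is to be read beside 41.7% of all genes as measured and this 39.8%. A highest window can rise with the number of windows of a gene. The 76 genes had 3 to 66 windows each, against a median of 25 over all genes, and the counts were not matched for this. The roles hold 6 to 15 measured genes each, so their counts are descriptions only.

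The genes around Epor and Tfrc come next. Of 12 measured signalling genes 10 reached 1, with Pim1 (a survival kinase) at 1.77, Ptpn6 (a phosphatase that dampens the receptor) at 1.73 and Sh2b3 (an adaptor) at 1.46, and the lowest were Stat5a at 0.86 and Epo itself at 0.65. This count was 6 of 12 against probes of the same length, where 39.8% of all genes reached 1. These 12 genes had 22 to 49 windows each, against the median of 25 over all genes. Of 9 iron genes 7 reached 1, and 6 against probes of the same length, beside 41.7% and 39.8% of all genes. Among the iron genes Fth1 (ferritin heavy chain) had 1.78, Ireb2 (iron regulatory protein) 1.62 and Tfr2, the second transferrin receptor, 1.29, while Slc11a2, the divalent metal transporter, had 0.62.

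In heme synthesis 6 of 8 genes reached 1, with Ppox at 1.69, Urod at 1.50 and Cpox at 1.32, while Fech had 0.82. Alas1, the form of the first enzyme found in all tissues, had 1.19, against 0.78 for the erythroid Alas2. Set against probes of the same length, 4 of the 8 reached 1, beside 39.8% of all genes.

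Among erythroid transcription factors and their cofactors 9 of 13 reached 1. Lyl1 had 2.12, Tal1 1.78 and Mafk 1.55, while Sox6, a repressor of embryonic globin, had 0.78 and Klf3, a repressor that binds the same motifs as Klf1, 0.77. Gata1 had 0.93, below the threshold. The role had 8 of 13 at 1 or more against probes of the same length, beside 39.8% of all genes.

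Red cell membrane genes, the role of Slc4a1, had 4 of 15 at 1 or more. These were Epb4.1 (a protein of the membrane skeleton) at 2.61, Icam4 (an adhesion protein) at 2.14, Add2 (beta adducin) at 1.26 and Aqp1 (a water channel) at 1.08. Epb4.1 had 64 windows, against a median of 25 over all genes, and a mean of -0.23 within 500 bp of its start. Icam4 had 7 windows and a mean of 1.57 there. The lowest, Rhag (an Rh-associated ammonium channel) and Ank1 (ankyrin), had 0.45 and 0.44. In this role the count moved with probe length: 10 of 15 reached 1 against probes of the same length, beside 39.8% of all genes.

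Of the other globin genes 1 of 6 had a window at 1 or more, as measured and against probes of the same length. Of all genes 41.7% and 39.8% had one. Hbb-b2, an adult beta-globin gene, had 1.03, but from 3 windows with no probe within 500 bp of the start. The adult gene Hbb-b1, with 7 windows, had 0.54, and Hbq1a (theta globin), with 8, had 0.17. Hbb-b1 and Hbb-b2 are near-identical copies whose probes may not tell them apart, as are Hba-a1 and Hba-a2. Ngb and Cygb, which encode globins of nerve cells and connective tissue cells, had 0.87 and 0.81.

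Of the late erythroid enzymes and factors, 7 of 13 had a window at 1 or more, as measured and against probes of the same length. The shares of all genes were 41.7% and 39.8%. Xpo7, an exportin, had 1.80, Blvrb (biliverdin reductase B) 1.75 and Prdx2 (peroxiredoxin 2) 1.40. Tspo2 and Trim10 were the lowest at 0.30 and 0.14.

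**Figure D5:**
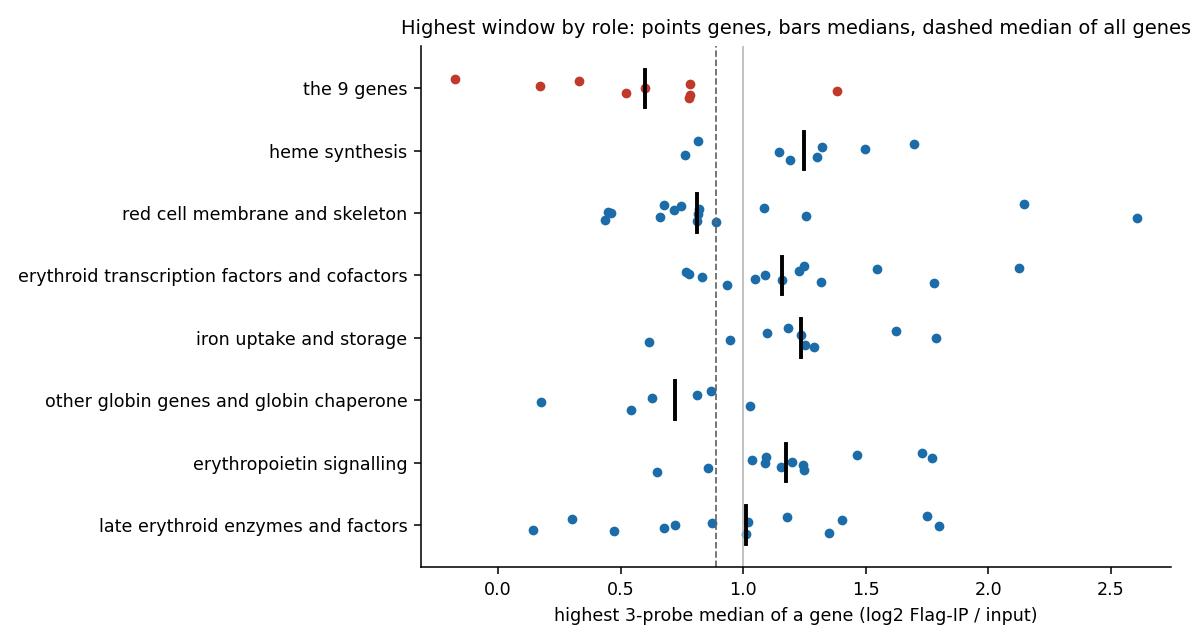
Highest 3-probe median of each gene (log2 Flag-IP over input, horizontal axis) for the 9 erythroid and globin genes (red) and 76 further erythroid genes by role (blue). Black bars are medians, the solid line marks 1 and the dashed line the median of all genes, 0.89; the 9 genes have a median of 0.60, and heme synthesis, iron, signalling and transcription factor genes have medians above 1.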

How the data were processed

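Per the file headers, the deposited intensities had been background-subtracted, spatially detrended and dye-scaled in Feature Extraction 10.1.1.1. Log2 of red over green was computed in Python 3.11.15 and centred on each array's median (0.06 and 0.07), without control spots and 19 and 38 outlier-marked probes. In both channels 95.3% of probes stood well above background, and 0 were saturated. The deposited mean and background intensities, corrected with normexp (limma 3.58.1, offset 50), the deposited log10 ratio column and the authors' value tables (log10, medians 0.0181 and 0.0207, so uncentred) served as alternatives. Windows belong to a gene when all 3 probes name it. The window step was run on simulated probes with independent noise, whereas neighbouring probes of these arrays correlated at 0.60 and 0.58. That run checked the code only and does not bear on the calls made here. Symbols of the files were renamed by accession (16297), symbol (303) or synonym (174) through RefSeq names, and 134 were kept.

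Members, motifs and the role lists were chosen with earlier results of these data known. All 9 members are named, and within a role at most the 3 highest and 2 lowest genes, apart from a few added for contrast after their values were seen (Alas1, Gata1, Aqp1). The number of arrays limits the precision.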

Additional observations from a re-analysis of the deposited data

How the results depend on the processing

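Of 13 alternative settings 10 were planned, and 3 were chosen after seeing the data: ratios set against probes of the same length, probes naming 1 gene only, and windows with any probe of the gene. The count of members with a window at 1 or more, 1 as reported, was 3 with normexp correction (Tfrc, Epor and Klf1; 50.3% of all genes), 4 with the brightness trend removed (Tfrc, Alas2, Epor and Slc4a1; 33.9% of all genes) and 2 against probes of the same length. The count at -1 or less was 4 as reported, against 54.1% of all genes. With normexp correction it was 0 (6.81% of all genes), and with windows of 5 probes 1 (37.0% of all genes). Other erythroid genes at 1 or more numbered 44, and 26 with windows of 5 probes (26.7% of all genes). The causes of these changes were not tested. The count at 2 or more was 0 under every setting, where 1.04% to 4.40% of all genes reached it. The median highest window of the members ranged from 0.36 to 0.90. The SD over the 3 probes of a member's highest window had a median of 0.56. That SD does not measure the error of a median over the members, so the range was not judged against it. With the brightness trend removed the members' median lay above that of all genes, 0.90 against 0.81, instead of below it. The member with the highest window was Tfrc except with normexp correction (Epor) and with the brightness trend removed (Alas2). No paired analysis was possible because each gene has 1 sample and no test was run. With 1 array per probe set, the spread between cultures is unknown.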

Other observations

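Flag-HoxB4 windows over all genes differed with promoter composition. Genes whose RefSeq promoter is under 45% G and C had a window at 1 or more in 14.9% of cases, those from 45% to 55% in 41.4%, those from 55% to 65% in 52.9% and those at 65% or more in 44.3%. Within 5 percentage points of its own composition, the highest window of Epor was higher than in 17.4% of genes, that of Hba-x than in 30.9%, that of Alas2 than in 37.9% and that of Klf1 than in 39.2%. Hba-a1, which had no probes near its start, was higher than 5.57% of such genes, while Tfrc was higher than 77.6%. The part of base composition in these results was not tested.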
